A study of Mus musculus with 12 samples.

Results

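The genes described here encode the CCT chaperonin (Tcp1, Cct2, Cct3, Cct4, Cct5, Cct6a, Cct7 and Cct8) and 2 subunits of prefoldin (Pfdn2 and Pfdn5), 10 of the 20504 genes in the table of reads counted on coding sequences (CDS). They were chosen by name, with the question of whether Cct4 and Pfdn5 respond to AZD-8055 apart from the partners in their complexes, and that question came from earlier results of the same libraries. The values after AZD-8055, and the vehicle values that are one arm of that comparison, are therefore given as descriptions without a test. The immunoprecipitation from mice E and F took no part in the choice and was tested.

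All 6 animals were adult mice, 3 months old, from a cross of Camk2a-cre with RiboTag mice. Cre driven by the Camk2a promoter exchanges the last exon of Rpl22 for a copy with a hemagglutinin (HA) tag, so that principal excitatory neurons of the forebrain carry tagged ribosomes, in all groups alike. Mice C and D had been dosed by oral gavage 1 h earlier with 100 mg/kg of AZD-8055, which inhibits the kinase mTOR by competing with ATP. Mice A and B are labelled as untreated and received the Captisol vehicle according to the study's methods. Mice E and F are labelled as untreated. From mice A to D the right frontal lobe was homogenized, and each lysate was split between ribosome footprinting and RNA-Seq of poly(A)-selected RNA from the whole tissue, with no selection for the tag. From mice E and F the homogenate (input) and the HA immunoprecipitate (IP) were sequenced by RNA-Seq. Each group thus held 2 libraries from 2 mice.

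CCT is a double ring built from 8 related but distinct subunits, each present once per ring, which folds newly made actin, tubulin and many WD40-repeat proteins in an ATP-dependent cycle. Prefoldin is a smaller, jellyfish-shaped complex of alpha-type and beta-type subunits that binds unfolded actin and tubulin as they leave the ribosome and hands them to CCT. Neurons hold much tubulin in the microtubules of their axons and dendrites. The kinase complex mTORC1 controls the translation of mRNAs that begin with a terminal oligopyrimidine (TOP) tract, a C followed by a run of pyrimidines, of which the mRNAs of ribosomal proteins are the best known.

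All 10 genes could be matched by symbol to RefSeq positions in the build GRCm38.p6. Pfdn5 (gene ID 56612) spans chr15:102326116-102331490, Pfdn2 (18637) chr1:171344954-171359254 and Cct4 (12464) chr11:22990593-23003336. Coding genes overlap the span of 5 of the 10, namely Mrpl18 and Acat3 with Tcp1, Psph with Cct6a, Pradc1 with Cct7, Usp16 with Cct8, and Nit1 and Klhdc9 with Pfdn2. Because TOP tracts lie at the very start of an mRNA, 30 bases centred on annotated start sites are shown for Pfdn5, its partner Pfdn2, and Tcp1 and Cct2, the CCT subunits nearest to Cct4 in their response. Rps12 is shown for comparison as the ribosomal protein gene with the largest decrease in translation efficiency. The sequences are from RefSeq, 5′ to 3′ on the strand of the gene, with 15 bases before the start and 15 from it on, and capitals mark each C that is followed by at least 4 pyrimidines, with the run itself.
Pfdn5, chr15:102326101-102326130, + strand: ccctggcggcaccacggaggtaacgcggag
Pfdn2, chr1:171344939-171344968, + strand: ttcgaagtaatcggtatccggtacacagga
Pfdn2, second start, chr1:171345660-171345689, + strand: cggatgtgacgcagtgagagtgcgcaggcc
Tcp1, chr17:12916314-12916343, + strand: gcagCCCCCTaCTTCCggcgttttcagttt
Cct2, chr10:117063838-117063867, − strand: ccggcccagcccgccacgcaggaggcggaa
Cct2, second start, chr10:117063361-117063390, − strand: cgCCCTCTTCggggcggggctggaagggcg
Rps12, chr10:23787195-23787224, − strand: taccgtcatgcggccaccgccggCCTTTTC

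Of the 12 windows for 9 of the genes, 2 held such a run, the windows of Tcp1 and the second start of Cct2, and in none did the run begin at the annotated start base. No window is shown for Cct4. On the other strand, 58.3% of the 12 windows held the run. Among all 32851 windows of 27025 genes, 36.4% held the run on the gene's strand, 40.8% on the other strand, and in 2.51% it began at the start base. Among the 71 windows of 59 ribosomal protein genes, 60.6% held it and in 18.3% it began at the start base. Pfdn5 held no run in this window. These are letters around annotated starts, and where transcription began in these brains was not measured.

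The libraries held between 3503873 (footprints, mouse C) and 15585831 (input, mouse F) reads on CDS. The 10 genes took between 0.184% and 0.352% of them, and every member held at least 219 counts in each library. Libraries of the same group differed by more than counting error (chi-square per degree of freedom between 2.61 and 9.53). Levels are CPM, CDS counts scaled with edgeR's TMM factors to a common library size, which are not divided by length and so are compared only within a gene. Markers of excitatory neurons summed to 4706 to 5052 CPM in the inputs and were at 8788 to 9273 CPM in the IP, while oligodendrocyte markers went from 1898 to 2029 CPM down to 186 to 200.3 CPM. No marker of the 7 cell type lists was at 0 in any library. Between vehicle and AZD-8055 the summed levels of both neuronal lists were higher in treated mice without overlap. Excitatory markers went from 3713 and 3894 to 4242 and 4262 CPM in footprints and from 3939 and 4011 to 4080 and 4453 CPM in RNA-Seq. Inhibitory markers went from 1726 and 1824 to 1883 and 1902 CPM in footprints and from 1075 and 1118 to 1177 and 1227 CPM in RNA-Seq. The part of these shifts in the results below was not tested. In such bulk samples, fewer cells of a type and less RNA per cell cannot be told apart.

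**Figure D1:**
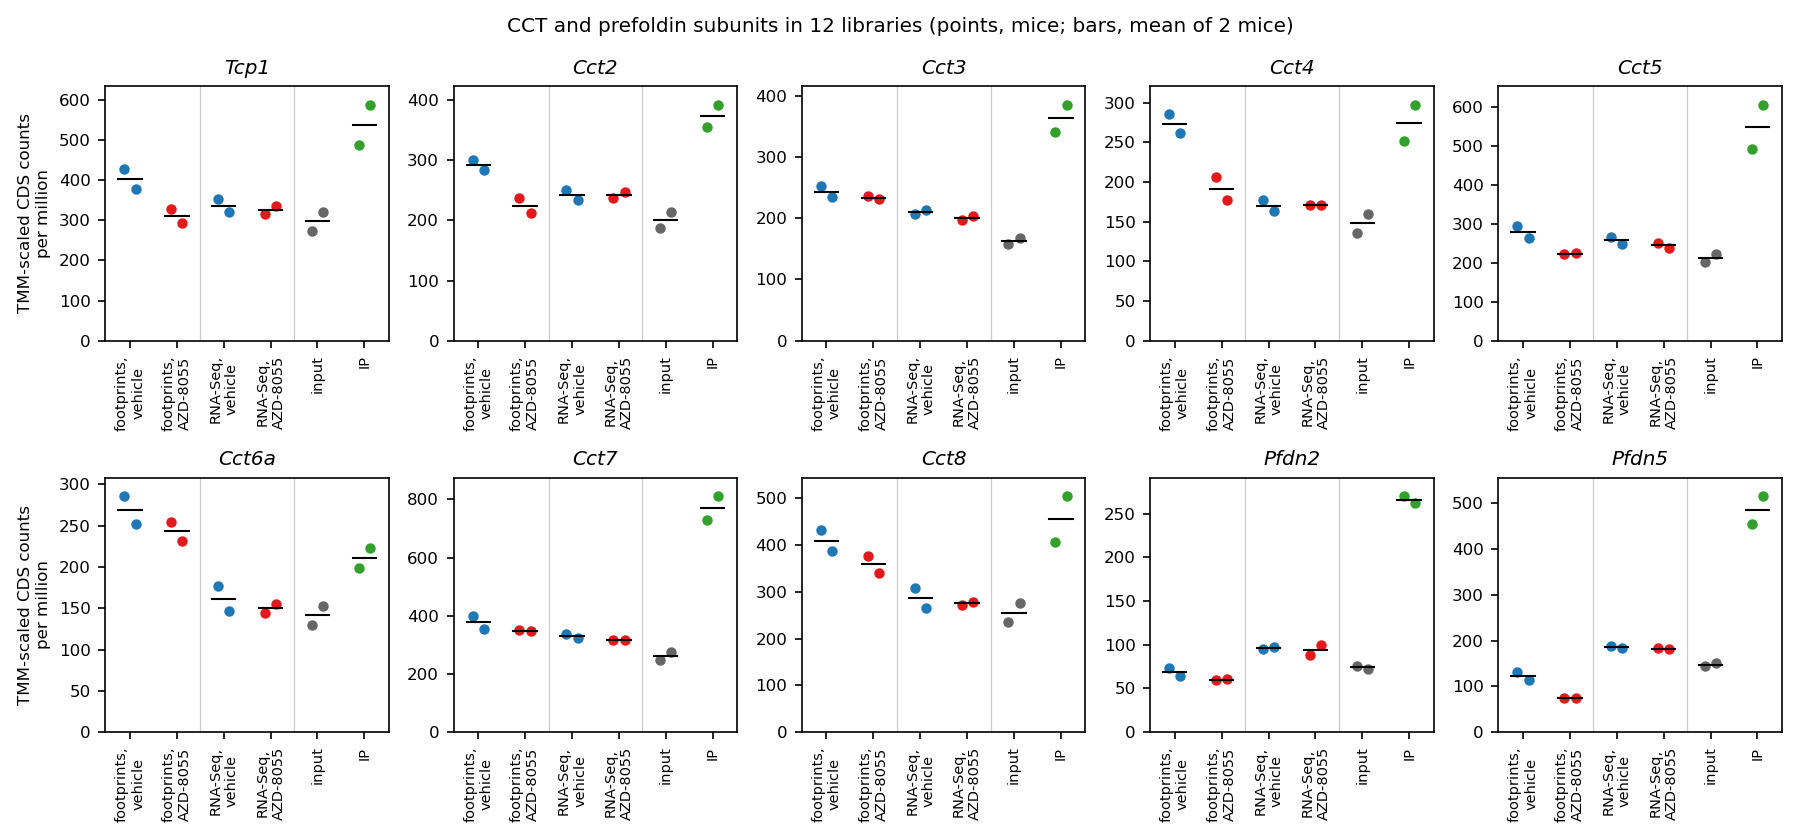
CPM on the CDS (y axis, from 0, a scale of its own for each gene) of the 10 genes in the 6 groups (x axis), with a point for each mouse and a bar for the mean of 2 mice. Footprints of Cct4 and Pfdn5 are lower in both AZD-8055 libraries than in both vehicle libraries, their RNA-Seq values differ little, and all 10 genes are higher in IP than in input.

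After AZD-8055, ribosome footprints on Pfdn5 were at 0.61-fold and those on Cct4 at 0.70-fold of the vehicle level, while the mRNA of both genes was within a few percent of vehicle. The partners of Cct4 in the chaperonin lay between 0.77-fold and 0.97-fold, and Pfdn2, the partner of Pfdn5, at 0.88-fold.

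Pfdn5, an alpha-type subunit of prefoldin also known as a binding partner of c-Myc, had 131 and 114 CPM of footprints in vehicle mice A and B and 73.6 and 74.8 CPM in AZD-8055 mice C and D. The groups did not overlap, and both treated mice lay close together. Its mRNA was at 189 and 184 CPM in mice A and B and at 183 and 182 CPM in mice C and D, a difference of a few CPM, though without overlap. The log2 change was −0.71 (standard error 0.088) in footprints and −0.060 (0.070) in mRNA. Only 0.954% of all genes in the fit, Pfdn5 included, had a footprint change as low or lower.

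Pfdn2, a beta-type subunit of prefoldin, had 73.5 and 64.1 CPM of footprints in mice A and B and 59.7 and 60.2 CPM in mice C and D. The treated mice lay just under the vehicle mice, by less than the latter differed from each other. Its mRNA was at 95.5 and 97.3 CPM in vehicle and at 88.7 and 99.2 CPM in treated mice, which overlap. The log2 change of Pfdn2 footprints was −0.19 (standard error 0.10).

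Counted against each other within a library, which needs no scaling, Pfdn5 had 1.78 footprints for each footprint of Pfdn2 in mouse A and 1.78 in mouse B. In mice C and D the ratio was 1.23 and 1.24. The ratio of RNA-Seq counts was 1.98 and 1.89 in mice A and B and 2.07 and 1.83 in mice C and D. The footprint ratio therefore separated the treatments in all 4 mice, and the mRNA ratio did not.

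Cct4, the delta subunit of the chaperonin, had 285 and 262 CPM of footprints in mice A and B and 206 and 178 CPM in mice C and D. The lowest vehicle mouse was above the highest treated mouse. Its mRNA was at 177 and 163 CPM in vehicle and 172 and 171 CPM in treated mice, inside the vehicle range. The log2 change was −0.50 (standard error 0.084) in footprints, lower than in all but 2.23% of genes, and −0.019 (0.073) in mRNA.

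Cct2 and Tcp1, the beta and alpha subunits, came next. Footprints of Cct2 were at 300 and 285 CPM in vehicle and at 237 and 212 CPM in treated mice, a log2 change of −0.37 (standard error 0.077). Footprints of Tcp1 were at 428 and 379 CPM in vehicle and at 328 and 293 CPM in treated mice, a log2 change of −0.37 (0.078). In both genes the groups did not overlap, and the mRNA ranges of both groups did.

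Cct5, the epsilon subunit, had a footprint change of −0.31 (standard error 0.076), from 294 and 264 CPM in vehicle to 222 and 224 CPM in treated mice. Cct8, the theta subunit, had a change of −0.18 (0.075) and Cct6a, the zeta subunit, of −0.14 (0.080). Cct7, the eta subunit, and Cct3, the gamma subunit, had the smallest changes, −0.099 (0.072) and −0.050 (0.073), with Cct3 at 252 and 235 CPM in vehicle and 236 and 231 CPM in treated mice. Footprints of 8 genes did not overlap between the groups, all of them lower after AZD-8055, and those of Cct3 and Cct6a overlapped. Over all 10695 genes in the fit, 22.6% were lower without overlap and 19.4% higher. RNA-Seq values did not overlap in 3 genes, Cct3, Cct7 and Pfdn5, which were lower after AZD-8055 with log2 changes from −0.10 to −0.060, where 14.7% of 12182 genes were lower without overlap and 25.7% higher. No reading is made of either count, since the genes were chosen on this contrast.

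In edgeR's quasi-likelihood fit over 10695 genes, 0.982% of all genes were called lower in footprints and 0.0468% higher at an adjusted p under 0.05. Cct4 and Pfdn5 were among those called lower, and no member was called higher. Nothing is read from that count, since this contrast chose the genes. The median footprint change of the 10 genes was −0.25, against 0.00099 over all genes in the fit. For mRNA, 0.148% of 12182 genes were called in either direction, none of them a member, and the 10 changes ran from −0.14 (Cct6a) to −0.019 (Cct4) with a median of −0.085, against −0.0035 for all genes. Of all genes, 110 were called in footprints in either direction. Leaving out mouse A or mouse B lost Cct4 and left 1 member called, of 82 and 64 genes called in all. Leaving out mouse C or mouse D gave 5 members, of 837 and 265 genes. Tcp1 and Cct2 joined under DESeq2, with scaling by total counts and without the limit on counts, which gave 4 members of 119, 128 and 264 genes.

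**Figure D2:**
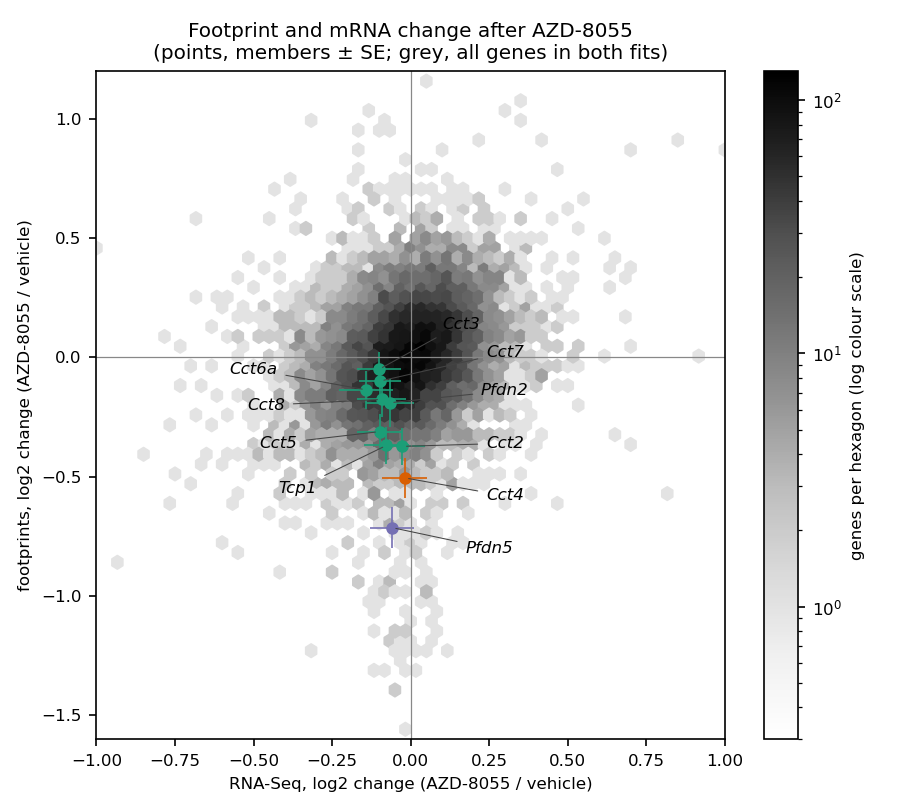
Log2 change of AZD-8055 over vehicle in RNA-Seq (x axis) and in footprints (y axis) for the 10 genes, as points with standard errors, over the density of the 10531 genes in both fits in grey on a log colour scale, of which 9 lie outside the axes. The members lie in a narrow column just left of 0 on the x axis and spread downward from Cct3 (−0.050) to Pfdn5 (−0.71).

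Translation efficiency (TE), the ratio of normalized footprint to RNA-Seq counts of a gene in 1 mouse, gave nearly the same order of the genes. The log2 TE of Pfdn5 was −0.45 and −0.62 in mice A and B and −1.22 and −1.19 in mice C and D. The distance between the closest vehicle and treated mouse was 0.57 and exceeded the difference within either pair. The log2 TE of Pfdn2 was −0.30 and −0.53 in vehicle and −0.48 and −0.63 in treated mice, which overlap.

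The log2 TE of Cct4 was 0.77 and 0.75 in mice A and B, almost the same, and 0.36 and 0.15 in mice C and D. Mouse D lay further from vehicle than mouse C. Tcp1 went the same way with 0.35 and 0.31 in vehicle against 0.14 and −0.10 in treated mice, as did Cct2 with 0.34 and 0.35 against 0.086 and −0.14. In these 3 genes mouse D was lowest, and the treated mice differed from each other more than the vehicle mice did.

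The log2 TE of Cct5 was 0.23 and 0.15 in vehicle and −0.083 and −0.0040 in treated mice. Cct3, Cct6a, Cct7 and Cct8 overlapped between the groups, as did Pfdn2. Cct6a had the highest TE of the 10 genes in all 4 mice, 0.77 and 0.85 in vehicle and 0.91 and 0.67 in treated mice. The 5 genes whose TE did not overlap were Tcp1, Cct2, Cct4, Cct5 and Pfdn5, all lower after AZD-8055, a pattern found in 20.9% of 11767 genes, while 16.3% were higher without overlap.

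**Figure D3:**
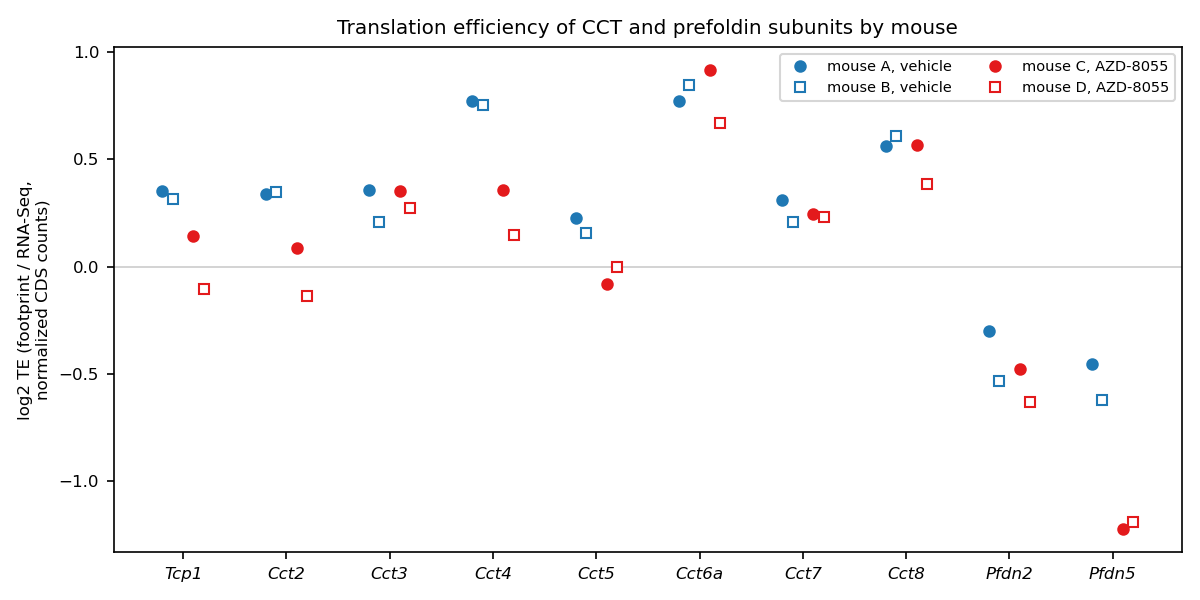
Log2 TE (y axis) of the 10 genes (x axis) in vehicle mice A and B (blue) and AZD-8055 mice C and D (red), with a point for each mouse. Red points lie below blue points for Tcp1, Cct2, Cct4, Cct5 and Pfdn5, and the ranges of red and blue points overlap for the other 5 genes.

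Set against the median of its 7 partners within each mouse, Cct4 lay 0.42 above in mouse A and 0.44 above in mouse B on the log2 TE scale. In mouse C it lay 0.11 above and in mouse D at −0.081. The TE change of Cct4 minus the median of its partners was −0.40, and it ran from −0.30 to −0.52 over the 4 pairs of a vehicle with a treated mouse. After AZD-8055 Cct4 was thus closer to its partners in TE than before. Tcp1 and Cct2, taken the same way against the other 7 subunits, gave −0.21 and −0.26, starting from the middle of the complex rather than above it. Over the 4 pairs of mice they ran from −0.17 to −0.33 and from −0.24 to −0.40. Taken against the mean of the other subunits, the pooled SD between mice was 0.040 for Cct4, 0.061 for Tcp1 and 0.055 for Cct2. These SDs do not measure the spread of the differences from the median.

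Pfdn5 minus Pfdn2 was −0.15 and −0.086 in vehicle mice A and B, and −0.75 and −0.56 in mice C and D. The difference between treatments was −0.53 with a pooled SD of 0.098, and it ran from −0.41 to −0.66 over the 4 pairs of mice. Both subunits started near each other in TE, and they were apart in both treated mice. A difference between members does not depend on the scaling between libraries.

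In edgeR's fit of the interaction of library kind and treatment over 11797 genes, 0.788% of genes were called lower in TE and 0.0763% higher. Pfdn5 (log2 change −0.68, standard error 0.11) was called lower, and Cct4 (−0.51, 0.11) was not. Again nothing is read from this. The median TE change was −0.19 over the 10 genes, −0.10 over the 7 partners of Cct4 and −0.011 over all genes. Cct3 (0.030), Cct6a (−0.016) and Cct7 (−0.022) lay at the centre of all genes, at the 57.9, 48.9 and 47.5 percentile. Mice pair the libraries, and with the mouse as a replicate block in the same fit 3 members were called, Cct2, Cct4 and Pfdn5, while the genes called over the whole table went from 102 to 147. Without mouse A and without mouse C no member was called, and Pfdn5 then had a change of −0.61 and −0.64.

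Counts of the 8 CCT genes can be set against each other within a library, free of any scaling. Cct4 took 10.7% and 10.8% of the CCT footprints in mice A and B and 9.32% and 8.63% in mice C and D. Of the CCT RNA-Seq counts it took 8.51% in each of mice A and B and 9.00% and 8.77% in mice C and D. In vehicle mice its share of footprints was 1.26 times its share of mRNA, second to Cct6a with 1.31. The difference in footprint share between treatments was −1.77 percentage points for Cct4, −1.30 for Tcp1 and −0.99 for Cct2. It was 1.57 points for Cct7 and 1.37 for Cct3, whose shares were higher after AZD-8055. In RNA-Seq the differences ran only from −0.31 points (Cct6a) to 0.47 points (Cct2).

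**Figure D4:**
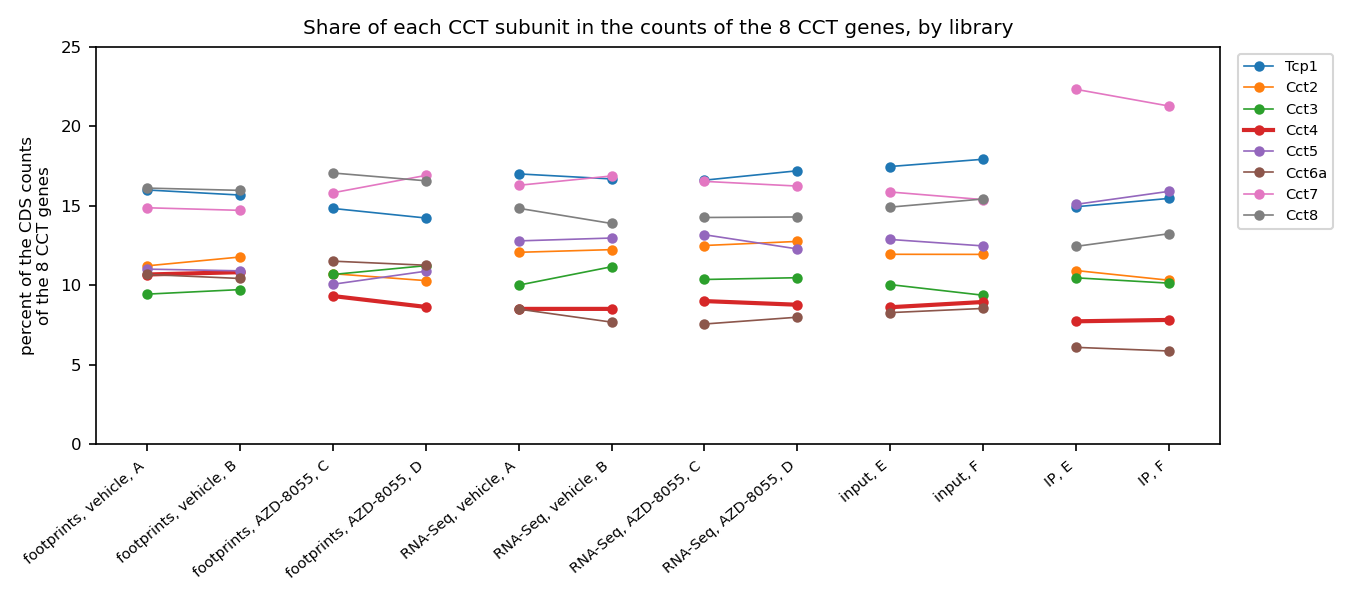
Share of each CCT gene in the CDS counts of the 8 CCT genes (y axis, percent, from 0) in each of the 12 libraries (x axis), with the 2 libraries of a group joined by a line and Cct4 drawn thick. Cct4 goes from 10.7% and 10.8% to 9.32% and 8.63% of footprints, and Cct7 takes 22.3% and 21.3% in the IP.

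In vehicle brains all 8 CCT genes had a log2 TE above the median of 10880 genes (0.016), from 0.19 ± 0.050 (SD, n = 2 mice) for Cct5 to 0.81 ± 0.053 for Cct6a. Cct4, at 0.76 ± 0.012, lay at the 81.1 percentile of all genes and Cct6a at the 82.7 percentile. Those neighbours differ by about the spread of Cct6a between mice. Cct8 followed at 0.58 ± 0.033. Below it, Cct2 (0.34 ± 0.0089), Tcp1 (0.33 ± 0.028), Cct3 (0.28 ± 0.11) and Cct7 (0.26 ± 0.073) lay within the spread of Cct3. Pfdn2 (−0.42 ± 0.16) and Pfdn5 (−0.54 ± 0.12) lay below the median and did not differ beyond their spread. These levels depended on the counts used. With exon counts for RNA-Seq, the median of the 10 genes over that of all genes went from 0.29 to 1.06, and Pfdn2 and Pfdn5 lay 0.33 and 0.23 above the median of all genes in place of below it.

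In polysomes pulled down from excitatory neurons, mRNA of all 10 genes rose over the input of the same brains, by 1.52-fold for Cct6a up to 3.66-fold for Pfdn2. In edgeR's quasi-likelihood test, adjusted with Benjamini-Hochberg over 12211 genes, all 10 passed the threshold of 0.05 as higher, where 36.5% of all genes were called higher and 39.0% lower. The median log2 change was 1.06 over the 10 genes and −0.067 over all genes. All 10 genes were higher in the IP of both mice, with no overlap between groups, as were 41.4% of all genes, while 46.1% were lower without overlap. Input and IP came from the same 2 mice, and the p-values measure the spread between these 4 libraries.

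The prefoldin subunits rose most. Pfdn2 had 76.2 and 72.3 CPM in the inputs of mice E and F against 270.0 and 263 CPM in the IP. Its log2 change was 1.87 (standard error 0.12, edgeR adjusted p = 3.14e-06), higher than in 96.7% of all genes tested. Pfdn5 had 144 and 150 CPM in the inputs against 456 and 515 CPM in the IP, a log2 change of 1.75 (0.11, edgeR adjusted p = 3.69e-06). The ratio of Pfdn5 to Pfdn2 counts went from 1.89 to 1.69 between input and IP in mouse E and from 2.08 to 1.96 in mouse F, and the ranges overlapped.

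Among the chaperonin subunits, Cct7 and Cct5 rose most. Cct7 had 249 and 276 CPM in the inputs against 729 and 810 CPM in the IP, a log2 change of 1.58 (standard error 0.11, edgeR adjusted p = 4.86e-06). Cct5 went from 202 and 223 CPM to 492 and 606 CPM, with a log2 change of 1.40 (0.13, edgeR adjusted p = 1.67e-05). Cct3 followed at 1.19 (0.12, edgeR adjusted p = 2.23e-05).

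Cct2 (0.93), Cct4 (0.92), Tcp1 (0.88) and Cct8 (0.86) formed a close group, each with a standard error between 0.12 and 0.14 and with edgeR adjusted p from 0.00011 to 0.000417. Cct4 itself had 135 and 160 CPM in the inputs against 252 and 297 CPM in the IP (edgeR adjusted p = 0.000243), so in the IP it stood among its partners. Cct6a rose least, from 130 and 153 CPM to 198 and 223 CPM, a log2 change of 0.60 (0.13, edgeR adjusted p = 0.00234).

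The 8 subunits thus did not keep their proportions. Of the CCT counts, Cct7 took 15.9% and 15.4% in the inputs of mice E and F against 22.3% and 21.3% in the IP. Cct5 went from 12.9% and 12.5% to 15.1% and 15.9%. Cct6a went from 8.27% and 8.53% to 6.08% and 5.85%, and Tcp1 from 17.5% and 17.9% to 14.9% and 15.5%. Cct4 had a share of 8.61% and 8.94% of the input counts against 7.72% and 7.81% of those of the IP. Cct2 went from 11.9% in both inputs to 10.9% and 10.3%, and Cct8 from 14.9% and 15.4% to 12.4% and 13.2%. In all of these genes the ranges of input and IP were apart by more than the mice differed. Those of Cct3 were apart by less, with 10.0% and 9.37% in the inputs against 10.5% and 10.1% in the IP.

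The size of these rises depended on what was counted and how libraries were scaled. On exon counts, which add the untranslated regions, the log2 change was lower for all 10 genes, by between 0.41 (Cct2) and 0.74 (Tcp1). Exon counts of the genes other than Tcp1 were between 0.999 (Cct6a) and 1.14 (Cct8) times their CDS counts. Library totals rose proportionally more in the IP, from 9309496 to 19681269 in mouse E and from 9975629 to 22237115 in mouse F. In the inputs they rose from 12580397 to 21880153 and from 15585831 to 27878212. The part of these totals in the lower changes was not tested. On exon counts, 8 of the 10 passed the threshold. Tcp1 (0.15, edgeR adjusted p = 0.231) and Cct6a (0.14, edgeR adjusted p = 0.254) did not, and the median of all genes was then −0.032. Scaling by total counts moved the median of all genes by −0.44, gave 3022 genes higher and 6272 lower in place of 4455 and 4766, and left Cct6a short of the threshold (0.16, edgeR adjusted p = 0.268). Relative to the median of all genes, the change was 0.67 for Cct6a and 1.94 for Pfdn2 in CDS counts and 0.17 for Cct6a and 1.41 for Pfdn2 in exon counts.

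**Figure D5:**
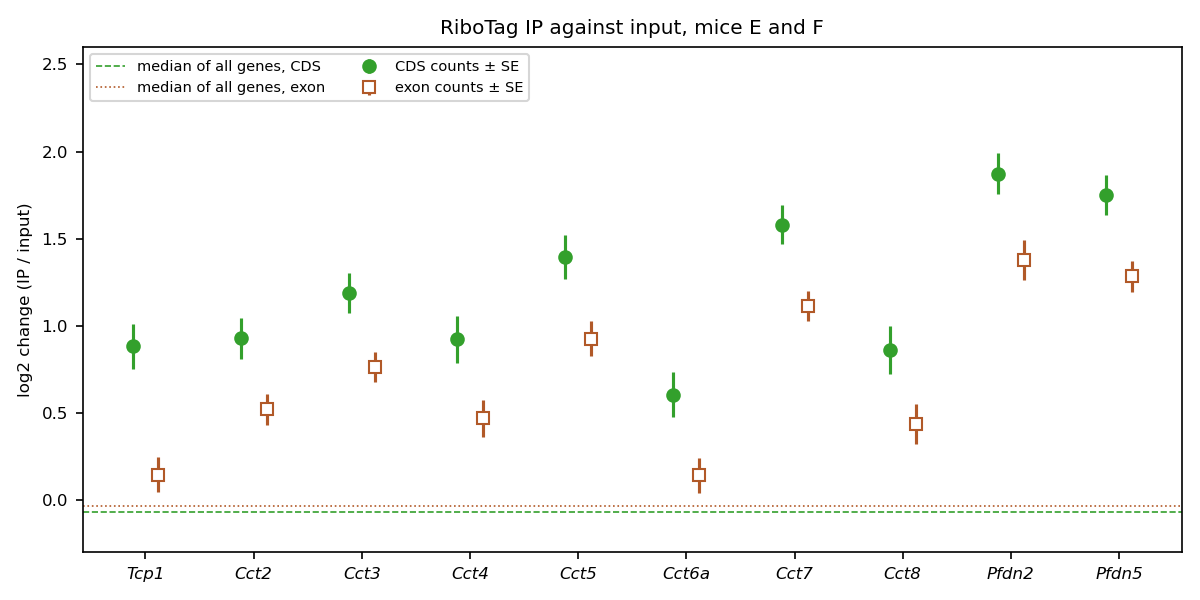
Log2 change of IP over input (y axis) of the 10 genes (x axis) from edgeR on CDS counts (green circles) and exon counts (open brown squares), with standard errors, and the median of all genes as lines. All 10 genes lie above both lines, from 0.60 to 1.87 in CDS counts, and the exon values lie below the CDS values for each gene.

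Tcp1 differed from the others in how its reads were assigned. Its exon counts came to between 0.66 and 0.82 of its CDS counts in the 8 RNA-Seq libraries, although the CDS lies within the exons. In the input libraries the ratio was 0.82 in both mice, and in the IP it was 0.70 and 0.66. The other 9 genes had ratios between 0.999 and 1.14. The span of Tcp1 overlaps Mrpl18 and Acat3 as annotated by RefSeq, and the part of these genes in its counts was not tested. Its footprint and RNA-Seq changes after AZD-8055 were counted on CDS alone.

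Other subunits of prefoldin and prefoldin-like complexes were taken as a list of 7 genes, of which 6 were in the table and passed the limit on counts. In the IP 4 of the 6 rose and 1 fell. Pfdn1 rose by 2.04 (edgeR adjusted p = 5.64e-06), Pfdn4 by 1.90, Pdrg1 by 1.51 and Uxt by 1.36 on the log2 scale, while Uri1, which belongs to the prefoldin-like complex, fell by 0.58 (edgeR adjusted p = 0.00677). Vbp1, the other alpha-type subunit of prefoldin, had a change of 0.31 (standard error 0.14, edgeR adjusted p = 0.0705). Its level was 42.6 and 50.6 CPM in the inputs against 57.7 and 55.7 CPM in the IP.

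After AZD-8055 no gene of that list was called in footprints, mRNA or TE, and all 6 had a TE change below 0, with a median of −0.23 against −0.011 for all genes. Pfdn1 had the largest, −0.43 (standard error 0.15), with 74.6 and 72.9 CPM of footprints in vehicle and 52.9 and 57.9 CPM in treated mice. Vbp1 had a TE change of −0.078 (0.13) and overlapping footprint levels, from 79.4 CPM in mouse D to 94.2 CPM in mouse B. Pfdn4 had a TE change of −0.063 (0.17). Pfdn5 therefore lay lower than each of the 4 prefoldin subunits measured beside it (Pfdn1, Pfdn2, Pfdn4 and Vbp1), and the ranges of 1 standard error around Pfdn5 and Pfdn1 overlapped.

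Cofactors and relatives of CCT, the phosducin-like proteins and chaperonin-like proteins of the cilium, were measured in 6 of 7 genes in the IP. Of these, 3 rose (Txndc9 by 1.10, Mkks by 0.91 and Pdcl3 by 0.84 on the log2 scale) and 3 were not called, among them Bbs10 with −0.64 (edgeR adjusted p = 0.16). After AZD-8055, only 3 genes of the list had enough counts in footprints, 6 in mRNA and 5 in TE, and none of these was called. The TE changes ran from −0.30 (Pdcl, standard error 0.23) to 0.39 (Mkks, 0.37). The mitochondrial chaperonin, Hspd1 and its lid Hspe1, rose in the IP by 0.94 and 1.58. Its TE changes after AZD-8055 were −0.16 for Hspd1 and −0.36 for Hspe1, neither of them called.

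The proteins that CCT folds were taken as lists of clients. Of 14 actin and tubulin genes with enough counts, none was called after AZD-8055 in footprints, mRNA or TE, and their median TE change was −0.072, between −0.65 (Tubb6, standard error 0.41) and 0.35 (Tubg2). In the IP 12 of the 14 rose and 1 fell, with a median of 1.54. Tubg2 rose by 1.91 (edgeR adjusted p = 3.46e-06) and Tubb2b fell by 1.91 (edgeR adjusted p = 1.84e-05). Of 9 WD40-repeat clients 3 rose in the IP, with Gnb2 the highest at 1.74, and 2 fell, with Dcaf7 the lowest at −0.92. None of the 9 was called after AZD-8055, and their TE changes ran from −0.24 (Ppp2r2a) to 0.24 (Fzr1). Among 7 tubulin cofactors, which act on tubulin after CCT, 4 rose in the IP, Tbcb by 2.17, and 1 fell, Tbcel by 1.51. No cofactor was called after AZD-8055, and their TE changes ran from −0.40 (Tbca) to 0.39 (Arl2).

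Ribosomal proteins, whose mRNAs are the known TOP mRNAs, give the scale of the response. Of 74 genes with enough counts, 69 were called lower in TE, with a median change of −0.90 and a range from −1.36 (Rps12) to −0.18 (Rps27l). The TE change of Pfdn5 (−0.68) and that of Cct4 (−0.51) lay inside this range, nearer to its upper end. So did those of Cct2 (−0.37), Tcp1 (−0.31), Cct5 (−0.23) and, outside the members, Pfdn1 (−0.43). Cct3, Cct6a, Cct7, Cct8 and Pfdn2 lay above the range. Lying inside it therefore sets neither Pfdn5 nor Cct4 apart, and the members were chosen on this contrast. In the IP all 74 rose, with a median of 1.35, from 0.64 (Rps12) to 2.02 (Rpl24).

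Over the 12 libraries, the genes whose log2 CPM was most like that of Pfdn5 among 12013 genes were Rpl23, a ribosomal protein (Pearson correlation 0.997), Eef1b2, a subunit of the elongation factor eEF1 (0.997), and Eif3h, a subunit of the initiation factor eIF3 (0.996). Pfdn2 stood at rank 152 (0.960) and Cct4 at rank 5603 (0.346). Those most like Cct4 were Nck1, an adaptor protein (0.982), Eif2s2, a subunit of eIF2 (0.973), and Paip1, which binds the poly(A)-binding protein (0.973), with Cct8 at rank 10 (0.957) and Cct5 the lowest of its partners at rank 946 (0.745). These correlations describe 12 libraries in 6 groups, which share mice, depth and library kind. The libraries of mice A to D, from which the question on Cct4 and Pfdn5 came, are among them, so the rankings are descriptions only.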

How the data were processed

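Ligation-free ribosome profiling libraries (mice A to D) and poly(A)-selected RNA-Seq libraries (mice A to F) were analysed from the raw counts that the authors deposited, uniquely mapped reads per gene without normalization, for the CDS in 12 libraries and for all exons in the 8 of RNA-Seq. The submitters' processing notes name mm10, Bowtie2, TopHat2 and HTSeq, whose strict intersection mode leaves out reads shared by overlapping genes. Members, lists and the question on Cct4 and Pfdn5 were chosen with earlier results of these data known.

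CDS counts were compared with edgeR 4.0.16 in R 4.3.3 (TMM, quasi-likelihood test, Benjamini-Hochberg adjustment over all genes averaging 37 counts or more, threshold 0.05), and TE change with the interaction of library kind and treatment, after tests on simulated data. The standard errors given are the size of the log2 change divided by the square root of the test's F statistic. TE per mouse used DESeq2 1.42.0 size factors without a pseudocount, and its percentiles cover genes with at least 75 counts per library kind over mice A and B. Named genes were the members, the prefoldin list, the extremes of the other lists in IP and TE, and the 3 genes most like Cct4 and Pfdn5. Mkks, Pdcl3 and genes overlapping a member were named besides.

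Libraries with the same letter come from the same animal, so the mouse pairs them. Across 12014 genes, differences between mice correlated at 0.21 (A and B, RNA-Seq with footprints), 0.22 (C and D) and 0.44 (E and F, input with IP). The alternatives were DESeq2, other scalings, no limit on counts, exon counts, the mean of the partners, the mouse as a replicate block, a pseudocount of 1, and leaving out each mouse. Protein sequences and a genome were not used here.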

Additional observations from a re-analysis of the deposited data

How the results depend on the processing

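Each group held 2 mice. Leaving out each mouse moved the members called in footprints between 1 and 5 and in TE between 0 and 1, the genes called in footprints between 64 and 837 (837 without mouse C), in mRNA between 13 and 36 and in TE between 56 and 77. Without the limit on counts, 264 genes were called in footprints and 78 in mRNA, and scaling by total counts gave 29 in mRNA. Members called in footprints were 4 under DESeq2, scaling by total counts or no limit on counts, and in TE they were 2 under DESeq2 and without the limit on counts. With the mouse as a replicate block, 3 members were called in TE and 10 in the IP. The rise of Cct6a in the IP was lost with scaling by total counts (0.16), with exon counts (0.14) and, in a fit chosen after seeing the data, with exon counts and the replicate block (0.14). That of Tcp1 was lost with exon counts (0.15). Exon counts moved the baseline log2 TE of the members over that of all genes from 0.29 to 1.06 and the Cct4 share of CCT RNA-Seq counts from 8.69% to 9.01%. Cct4 minus its partners stayed between −0.43 and −0.36 and Pfdn5 minus Pfdn2 between −0.63 and −0.44 over the alternatives tried. The causes were not tested. In the IP, leaving out a mouse left no residual degrees of freedom, so no such test was run.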
